A study of Mus musculus with 12 samples.

Results

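Antiviral interferon-stimulated genes were followed in RNA-seq of whole mouse retina. The set holds 49 genes listed by symbol, and all 49 were found among the 25124 genes of both deposited tables. Every animal was labelled WT, 1 eye of each animal received an elevation of intraocular pressure (IOP) to 30 mmHg for 1 h, and the fellow eye, left untreated, was the control. In the single-IOP series, retinas were taken on day 2 from animals of 3 months (3mo control, 3mo IOP) and 18 months (18mo control, 18mo IOP), and in the repeated-IOP series animals that were 3 months old at the start received 4 elevations, every 2 weeks, and were sampled on day 2 after the last (4xIOP control, 4xIOP). Each of the 6 groups had 2 libraries, described by the authors as biological replicates, so 12 libraries were used. The treated eye was also cannulated and the fellow eye was not, so pressure and procedure cannot be told apart.

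Levels are given as FPKM, the reads of a transcript per kilobase of its length and scaled to the mapped tags of the library, and genes are compared with each other only on this scale. Fold changes are log2 fold changes of FPKM + 0.5 from limma, and a gene was called when its Benjamini-Hochberg adjusted p over all tested genes was at most 0.05 and its log2 fold change was at least 1 in size. A gene entered the test when its average over a series reached 0.5 FPKM, which kept 42 of the 49 members in the single-IOP series and 43 in the repeated-IOP series. Libraries held 39766236 to 59455040 tags, 44.2% to 71.5% of them in exons. Rod, ganglion cell and Müller glia markers were detected in every library, and no library was free of retinal pigment epithelium or blood transcripts. In whole tissue, more cells of a type and more RNA per cell cannot be told apart.

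Interferons are secreted proteins that bind receptors on the same or neighbouring cells and, through the kinases Jak1 and Tyk2, activate a complex of transcription factors that includes Stat2 and Irf9. This complex binds the interferon-stimulated response element in promoters and switches on a large set of antiviral genes. Their products sense viral RNA, degrade it, block its translation, stop particles from entering or leaving the cell, or tag proteins with the ubiquitin-like protein Isg15. In the retina, as in brain, these genes are usually low in unchallenged tissue, and microglia and macroglia are among the cells able to express them.

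In control retinas most members were low. The median over the 49 group means was 1.06 FPKM in 3mo control, 1.28 FPKM in 18mo control and 0.550 FPKM in 4xIOP control, and between 2 and 4 members reached 10 FPKM in any control group. In treated retinas the same median was 2.39 FPKM (3mo IOP), 2.89 FPKM (18mo IOP) and 4.30 FPKM (4xIOP). Within the single-IOP series the highest of the 4 group means lay in 3mo IOP for 22 members and in 18mo IOP for 27, and in a control group for 0. The lowest group mean lay in 3mo control for 41 members and in 18mo control for 8. Levels of the 2 series were normalized in separate tables and are not compared between them.

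**Figure D1:**
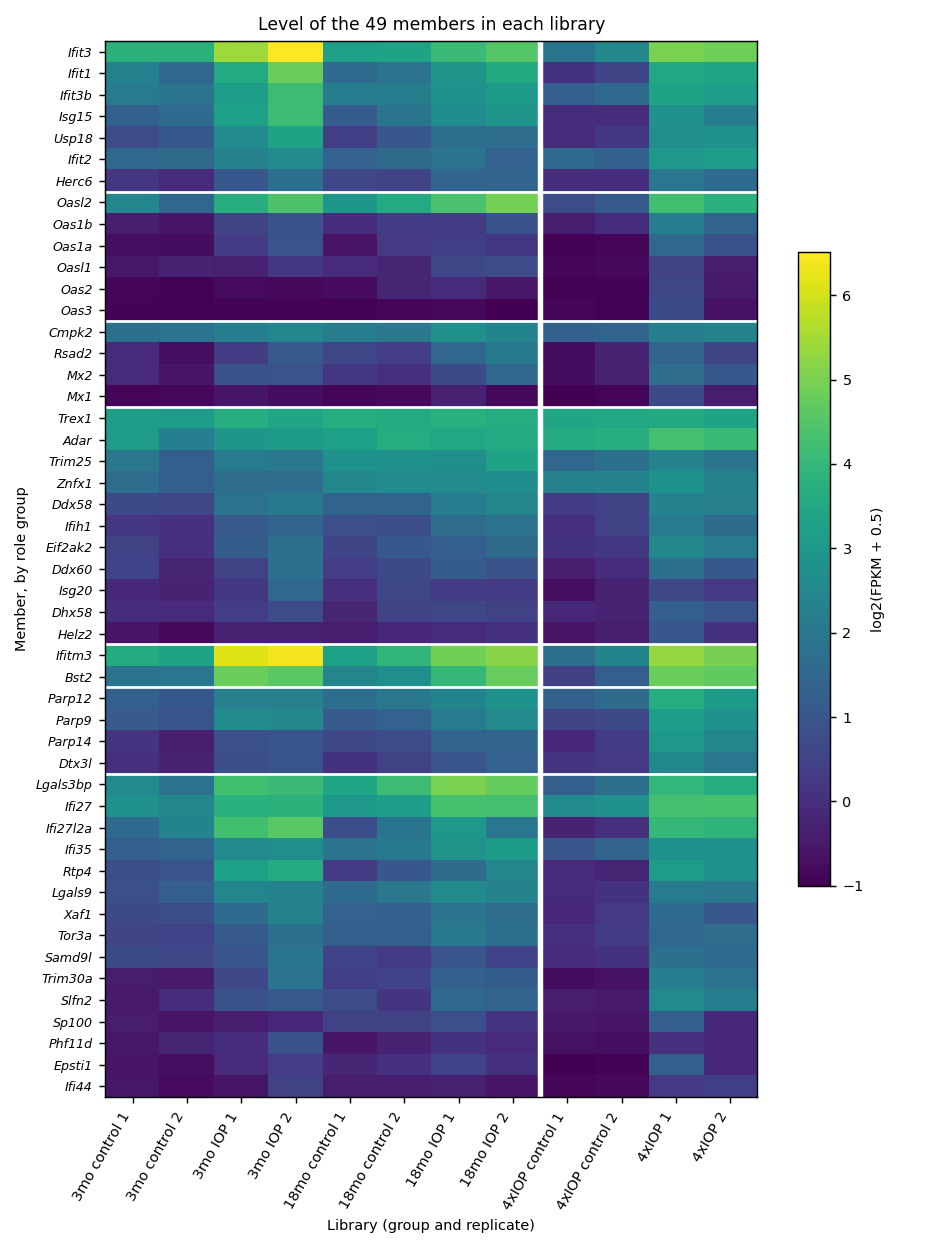
Level of each of the 49 members (rows, grouped by role and ordered by mean level within a role) in each of the 12 libraries (columns) as log2(FPKM + 0.5). White lines divide the role groups and the 2 series. The columns of 3mo IOP, 18mo IOP and 4xIOP are brighter than their controls, and Ifit3 and Ifitm3 reach the highest levels, up to 90.8 and 82.6 FPKM in 3mo IOP.

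The response element can be read in the promoters of part of the members. RefSeq promoter sequences of mouse (GRCm38.p6, the build mm10) were at hand for 37 of the 49, and not for Usp18, Oas1b, Oas2, Mx1, Mx2, Dhx58, Parp9, Parp14, Rtp4, Ifi27l2a, Ifi27 and Tor3a. The letters GAAA, followed by any 2 bases and again GAAA, were searched on both strands in the 250 bases before the start site, and overlapping matches were counted separately. They were found in 11 of 37 members (29.7%) and in 561 of 18353 genes of the same table (3.06%). The letters TTC, any 3 bases and GAA, the gamma-activated site, were found in 4 of 37 members (10.8%) and in 6.89% of all genes. A match is only a string of letters, and no binding was measured here. The stretches below, shown because they carry the match nearest the start site in the members named in the results, run 5′ to 3′ on the gene's strand with the matched bases in capitals. On the opposite strand the element reads TTTC, any 2 bases and TTTC.

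Ifit1, chr19:34640784-34640833, plus strand: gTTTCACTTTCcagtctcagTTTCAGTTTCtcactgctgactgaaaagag
Ifit3, chr19:34583387-34583436, plus strand: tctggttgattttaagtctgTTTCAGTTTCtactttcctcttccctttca
Isg15, chr4:156200855-156200904, minus strand: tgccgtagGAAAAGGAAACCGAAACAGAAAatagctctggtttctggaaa
Oas3, chr5:120777705-120777754, minus strand: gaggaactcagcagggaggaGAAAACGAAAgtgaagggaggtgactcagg
Rsad2, chr12:26456543-26456592, minus strand: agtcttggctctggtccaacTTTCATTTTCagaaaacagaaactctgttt
Bst2, chr8:71537567-71537616, minus strand: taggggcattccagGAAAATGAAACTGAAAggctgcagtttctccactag

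The nearer end of the element lay 57 bases before the start site in Isg15, 66 in Oas3, 76 in Ifit1, 111 in Rsad2, 113 in Ifit3 and 115 in Bst2. Isg15 held 3 overlapping matches and Bst2 2, whereas Oas3 and Rsad2 held 1 each. Ifit1 and Ifit3 held 2 each, and the other match of Ifit3 lay outside the stretch shown. The Ifit3b stretch (chr19:34607783-34607832) was identical to that of Ifit3 over its 50 bases. The other members with a match were Oas1a, Ddx60, Trim30a and Lgals9.

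The first comparison asked which members differed 2 days after a single elevation in young animals. In 3mo retinas 11 of 49 members rose and 0 fell (limma), where 0.568% of the 13731 tested genes rose and 0.00728% fell. The rising members were Ifit3, Isg15, Usp18, Ddx58, Bst2, Ifitm3, Parp9, Ifi35, Rtp4, Ifi27 and Lgals3bp. In 44 of 49 members both 3mo IOP libraries lay above both controls, beside 25.9% of the 20302 genes above 0 in a library. The median log2 fold change of the 49 members was 1.15, against 0.13 for all tested genes, and 47 members lay above the latter. All 49 values were above 0, beside 74.6% of tested genes. The range ran from 0.02 in Oas3 to 2.77 in Bst2.

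The proteins that hold virus at membranes had the largest differences. Bst2 (tetherin, NM_198095, chr8:71534256-71537472), which keeps budding particles on the cell surface, had 3.22 and 3.38 FPKM in the 3mo control libraries and 27.3 and 23.7 FPKM in 3mo IOP. Ifitm3 (NM_025378, chr7:141009590-141010744), which blocks virus entry through endosomes, had 11.8 and 9.76 FPKM in 3mo control and 70.3 and 82.6 FPKM in 3mo IOP. For both genes the treated libraries lay far above the controls with little spread. The log2 fold changes were 2.77 (SE 0.26, limma adjusted p = 0.0158) for Bst2 and 2.77 (SE 0.24, limma adjusted p = 0.0158) for Ifitm3.

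Among the 7 genes of the IFIT and Isg15 system, 3 rose and the median log2 fold change was 2.06. Ifit proteins bind viral RNA that lacks the host cap, Isg15 is the ubiquitin-like tag, Usp18 removes that tag and dampens receptor signalling, and Herc6 attaches it. Ifit3 (NM_010501, chr19:34583529-34588982) had 13.7 and 13.6 FPKM in 3mo control and 41.7 and 90.8 FPKM in 3mo IOP. Isg15 (NM_015783, chr4:156199424-156200818) had 2.02 and 2.62 FPKM in 3mo control and 9.42 and 17.2 FPKM in 3mo IOP. Usp18 (NM_011909, chr6:121245906-121270917) had 1.16 and 1.61 FPKM in 3mo control and 5.64 and 9.47 FPKM in 3mo IOP. In these 3 genes the groups did not overlap, and 3mo IOP replicate 2 was the highest library each time. Their log2 fold changes were 2.13 (Ifit3, SE 0.33), 2.24 (Isg15, SE 0.33) and 2.06 (Usp18, SE 0.30), with limma adjusted p-values of 0.0364, 0.0325 and 0.0325. Ifit1 had 4.39 and 2.35 FPKM in 3mo control and 11.6 and 27.3 FPKM in 3mo IOP. Its log2 fold change of 2.30 (SE 0.43) did not pass the limma test (adjusted p = 0.0703). Ifit3 shares 51.2% of its 50-base stretches with Ifit3b, so the split of reads between this pair is uncertain.

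In each of the other role groups a smaller share of the genes was called. Of the 11 genes for nucleic acid sensing and processing, Ddx58 (RIG-I, a sensor of viral RNA ends) was the only call. It had 1.09 and 1.03 FPKM in 3mo control and 2.99 and 3.59 FPKM in 3mo IOP (log2 fold change 1.28, SE 0.19, limma adjusted p = 0.0325). Ifih1 (MDA5, which senses long double-stranded RNA) had 0.630 and 0.540 FPKM (control) and 1.64 and 2.21 FPKM (IOP), with a limma adjusted p of 0.0594. Adar and Trex1, which edit double-stranded RNA and degrade cytosolic DNA, were among the highest of this group in control retinas and were not called. Adar had 8.15 and 4.26 FPKM in 3mo control and 7.42 and 8.11 FPKM in 3mo IOP, which overlap. Trex1 had 8.85 and 8.36 FPKM (control) and 12.2 and 10.2 FPKM (IOP), but 95.6% of its 50-base stretches also lie in transcripts of the overlapping gene Atrip.

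None of the 4 tested genes of the OAS family, whose active enzymes make 2′-5′ oligoadenylates that switch on RNase L, was called at 3 months. Oasl2 (NM_001359181, chr5:114896934-114912245) was the highest of the family, with 5.11 and 2.40 FPKM in 3mo control and 12.5 and 20.8 FPKM in 3mo IOP (limma adjusted p = 0.0790). Oas2 and Oas3 stayed under 0.1 FPKM in all 4 libraries and were not tested. Oas1a had 0.103 and 0.0890 FPKM (control) and 0.764 and 1.39 FPKM (IOP), and shares 57.6% of its 50-base stretches with Oas1g. Of the 4 genes Mx1, Mx2, Rsad2 and Cmpk2, none was called. Mx proteins are GTPases that trap viral capsids, and Rsad2 (viperin) makes a chain-terminating nucleotide from the product of its neighbour Cmpk2. Rsad2 had 0.440 and 0.111 FPKM in 3mo control and 0.731 and 1.66 FPKM in 3mo IOP, without overlap (limma adjusted p = 0.326).

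Parp9, the partner of the ubiquitin ligase Dtx3l, was the only call among the 4 PARP and Dtx3l genes. It had 1.72 and 1.42 FPKM in 3mo control and 5.66 and 5.02 FPKM in 3mo IOP (log2 fold change 1.5, SE 0.22, limma adjusted p = 0.0325). Among the 15 other members, 4 rose. Rtp4, a chaperone that helps receptors reach the cell surface, had 1.26 and 1.39 FPKM in 3mo control and 9.23 and 11.8 FPKM in 3mo IOP (log2 fold change 2.58, SE 0.32, limma adjusted p = 0.0293). Lgals3bp, a secreted galectin-binding glycoprotein, had 5.47 and 3.17 FPKM (control) and 18.5 and 16.7 FPKM (IOP). Neither gene overlapped between the groups, and Lgals3bp had a log2 fold change of 1.95 (SE 0.30, limma adjusted p = 0.0372). Ifi27l2a, a small interferon-inducible protein of organelle membranes, had 2.47 and 4.75 FPKM in 3mo control and 18.2 and 23.4 FPKM in 3mo IOP, and its log2 fold change of 2.42 did not pass the limma test (adjusted p = 0.0808).

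The 3mo calls rest on few libraries. They numbered 0 when 3mo control replicate 1, 3mo IOP replicate 1 or 3mo IOP replicate 2 was left out, and 11 when 3mo control replicate 2 was. With median-of-ratios size factors, which moved the median of all tested genes from 0.13 to -0.05, 3 members rose. The count was 1 by voom, 2 with no filter on low values, 7 with same-numbered libraries as a block and 26 with opposite-numbered libraries paired, a fit chosen after seeing the data. Of the 42 tested members, 12 had a group mean under 0.5 FPKM in one of the 2 groups, and none of the 11 calls was among them. In 3mo IOP, 40 of 49 members were higher in replicate 2 than in replicate 1, beside 39.9% of tested genes, and the summed FPKM of the members was 328.5 and 456.4. Summed FPKM of the 9 microglia markers was 24.4 and 33.9 in 3mo control and 60.8 and 50.2 in 3mo IOP, with 8 of 9 markers higher without overlap and 0 of 9 called. The 10 leukocyte markers summed to 2.28 and 11.15 FPKM in 3mo control and 6.58 and 2.89 FPKM in 3mo IOP, with 0 called. Of these sums Plac8 alone held 1.49 and 10.4 FPKM (control) and 4.28 and 1.90 FPKM (IOP). Without overlap, 3 of the 10 were higher and 0 lower. The astrocyte and Müller glia marker Gfap had 2.13 and 2.10 FPKM (control) and 25.0 and 31.3 FPKM (IOP) and rose. Gfap was the only call among the 5 markers of these cells, which summed to 425.4 and 526.9 FPKM in 3mo control and 496.1 and 419.2 FPKM in 3mo IOP. Of the 5, 2 were higher without overlap and 0 lower. Glul and Rlbp1, which overlapped, had log2 fold changes of -0.11 and -0.30. The part of these cells in the result was not tested.

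**Figure D2:**
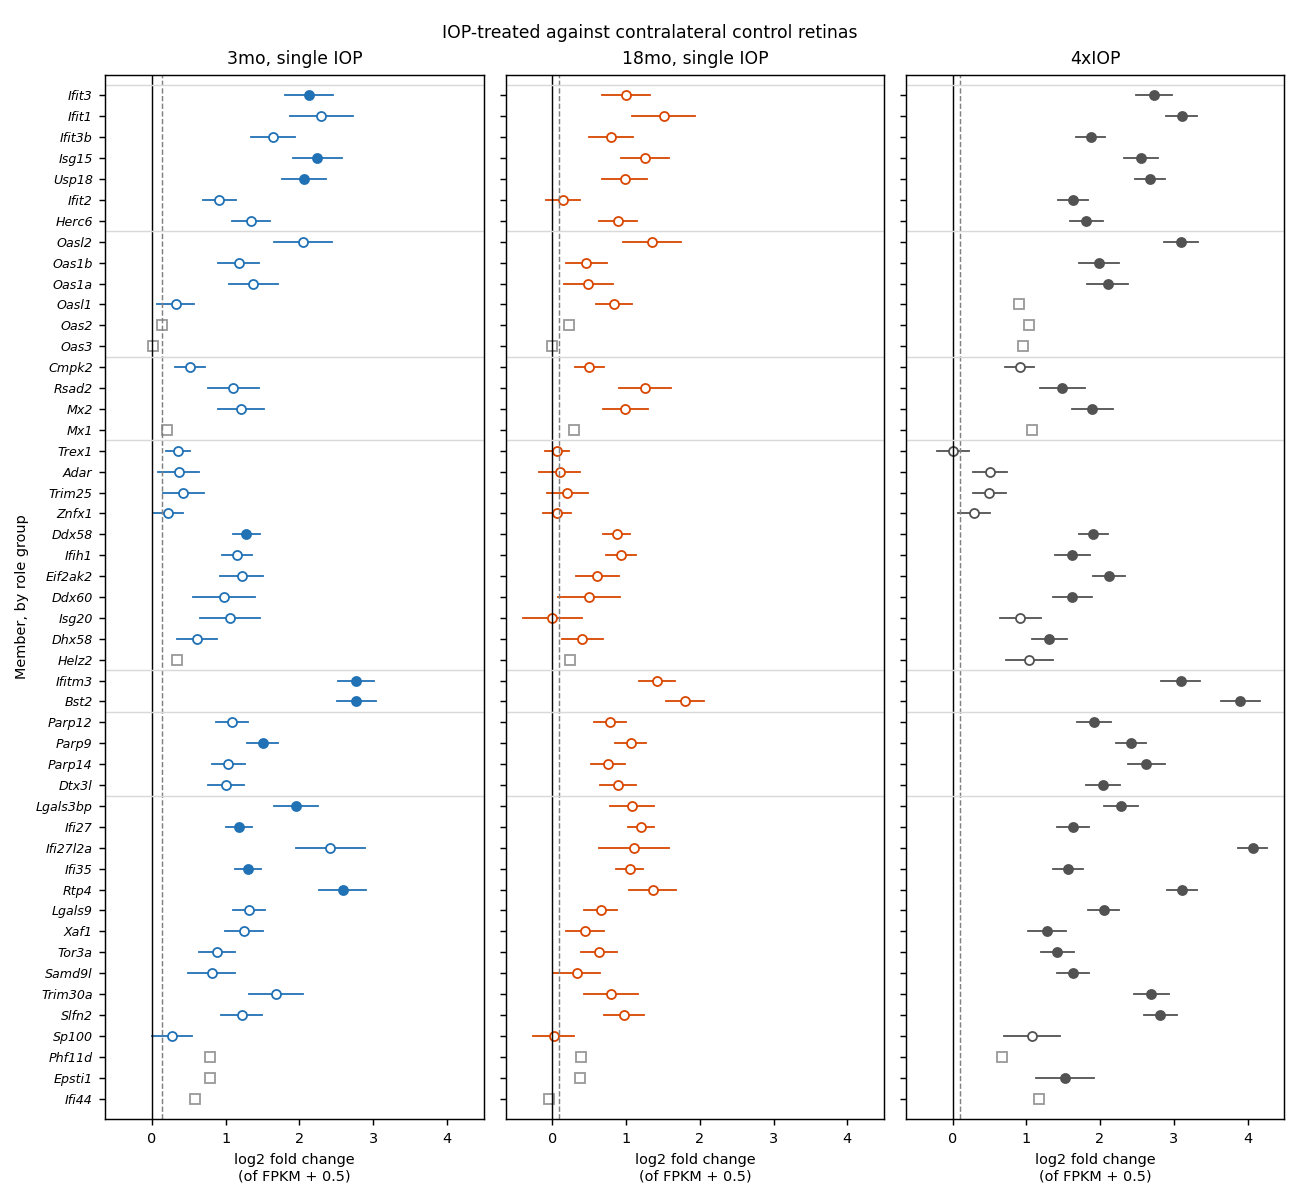
Log2 fold change of FPKM + 0.5 (x axis) of each member (rows, by role) in treated against contralateral control retinas, in 3 panels for 3mo, 18mo and 4xIOP. Circles are limma estimates with bars of 1 SE, filled circles were called (adjusted p up to 0.05, change of 1 or more), grey squares were not tested, and the dashed line is the median of all tested genes. Filled circles number 11, 0 and 35 from left to right, and Bst2 and Ifitm3 lie far right in all 3 panels.

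The same comparison was made in 18-month-old animals. At 18 months 0 of 49 members passed the test in either direction (limma), where 0.117% of tested genes rose and 0.00728% fell, and voom on the recovered reads also called 0. A fit that paired opposite-numbered treated and control libraries within an age, chosen after seeing the data, called 9 higher. At an unadjusted p under 0.05, 27 members were higher and 0 lower, beside 8.71% and 0.736% of tested genes. Both 18mo IOP libraries lay above both controls in 36 of 49 members and below them in 0, beside 30.0% and 8.99% of all genes above 0 in a library. The median log2 fold change was 0.76 against 0.09 for all tested genes, and 43 members lay above the latter. In all, 48 of 49 members were above 0, beside 65.9% of tested genes. Ifi44 was lowest (-0.05) and Bst2 highest (1.80).

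Bst2 had 4.82 and 6.25 FPKM in 18mo control and 15.5 and 26.7 FPKM in 18mo IOP. Its limma adjusted p of 0.0637 was the smallest of the members. Ifitm3 had 9.39 and 14.9 FPKM in 18mo control and 29.5 and 35.8 FPKM in 18mo IOP (log2 fold change 1.42, SE 0.24, limma adjusted p = 0.0948). Oasl2 had 7.37 and 11.7 FPKM in 18mo control and 20.02 and 30.1 FPKM in 18mo IOP (log2 fold change 1.36, SE 0.39, limma adjusted p = 0.229). In these 3 genes the groups did not overlap.

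The IFIT and Isg15 system had a median log2 response of 0.98 at 18 months. Ifit3 had 9.14 and 9.80 FPKM in 18mo control and 17.0 and 22.1 FPKM in 18mo IOP. Ifit1 had 2.49 and 3.08 FPKM (control) and 6.90 and 11.3 FPKM (IOP), and Isg15 1.76 and 3.18 FPKM (control) and 5.74 and 7.11 FPKM (IOP). Ifit2 had 2.08 and 2.54 FPKM in 18mo control and 3.21 and 2.08 FPKM in 18mo IOP, which overlap.

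Rsad2 had 1.06 and 0.781 FPKM in 18mo control and 2.29 and 3.61 FPKM in 18mo IOP (log2 fold change 1.26, SE 0.35, limma adjusted p = 0.215), and Rtp4 had 0.756 and 1.55 FPKM (control) and 2.67 and 4.88 FPKM (IOP). Of the 11 sensing and processing genes, 5 were higher without overlap, with a median of 0.25. Ifi27, of the same family as Ifi27l2a, had 7.61 and 8.71 FPKM in 18mo control and 19.6 and 19.1 FPKM in 18mo IOP (limma adjusted p = 0.0710). Without 18mo IOP replicate 1, 1 member was called. Summed FPKM of the microglia markers was 64.1 and 68.9 in 18mo control and 171.2 and 80.5 in 18mo IOP, with 4 of 9 higher without overlap and 0 called. The leukocyte markers summed to 0.630 and 0.786 FPKM in 18mo control and 2.81 and 4.39 FPKM in 18mo IOP, with 0 called, and Gfap had 4.87 and 4.39 FPKM (control) and 31.4 and 87.5 FPKM (IOP) and rose, the only call of the 5 Müller glia and astrocyte markers. Blood markers summed to 164.9 and 421.5 FPKM in 18mo control and 53.99 and 43.9 FPKM in 18mo IOP, with 4 of 4 lower without overlap. Rod markers were lower without overlap in 4 of 5 and higher without overlap in 1. Lens markers were higher without overlap in 4 of 4, and 0 were called in the blood, rod and lens lists. The part of these cells in the result was not tested.

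**Figure D3:**
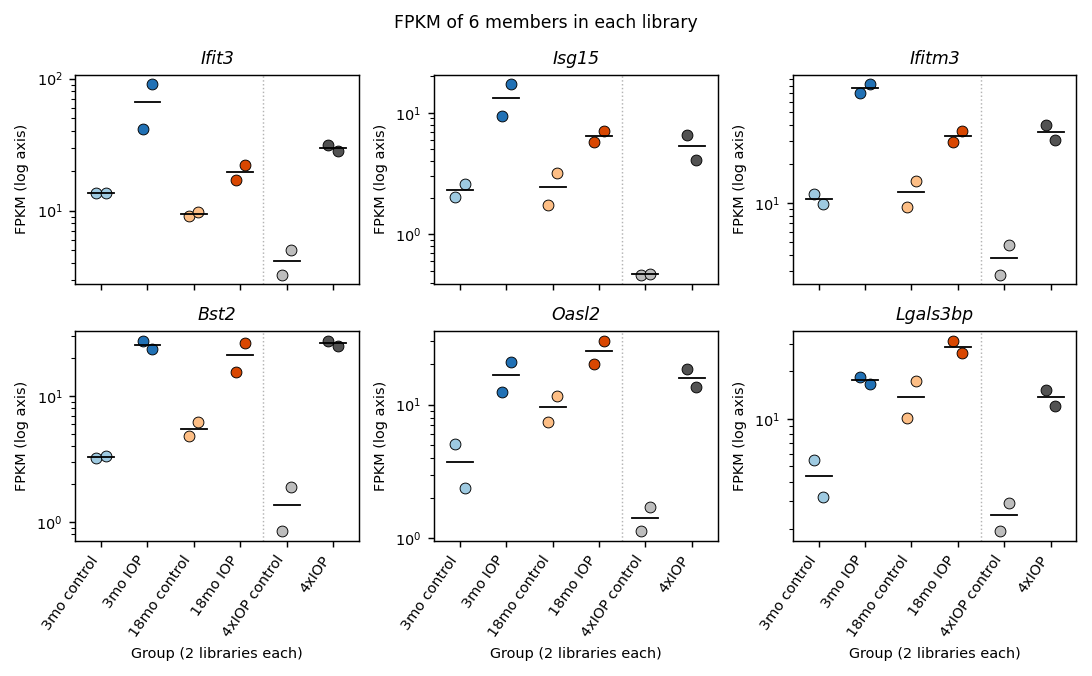
FPKM (log axis, with its own range in each panel) of Ifit3, Isg15, Ifitm3, Bst2, Oasl2 and Lgals3bp in the 6 groups. Points are libraries, bars are group means, and the dotted line divides the 2 series, which were normalized separately. Ifit3, Isg15 and Ifitm3 are highest in 3mo IOP within the single-IOP series, whereas Oasl2 and Lgals3bp are highest in 18mo IOP.

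After 4 elevations most members rose. In 4xIOP retinas 35 of 49 members rose and 0 fell (limma), where 5.45% of the 13718 tested genes rose and 0.693% fell. Both 4xIOP libraries lay above both controls in 48 of 49 members, Trex1 being the exception, beside 28.1% of the 19593 genes above 0 in a library. The median log2 fold change was 1.63 against 0.10 for all tested genes, and it was 1.81 with Epsti1, whose controls lay at or under 3 reads, placed at its bound. All 49 values were above 0, beside 65.1% of tested genes, 48 were above the median of tested genes, and they ran from 0.004 in Trex1 to 4.07 in Ifi27l2a.

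All 7 genes of the IFIT and Isg15 system rose. Ifit1 (NM_008331, chr19:34640889-34650009) had 0.582 and 0.996 FPKM in 4xIOP control and 10.7 and 10.2 FPKM in 4xIOP. Isg15 had 0.468 and 0.471 FPKM (control) and 6.51 and 4.12 FPKM (4xIOP), and Usp18 0.458 and 0.672 FPKM (control) and 6.09 and 6.43 FPKM (4xIOP). Treated libraries were many times above the controls in each. The log2 fold changes were 3.11 (Ifit1, SE 0.21), 2.55 (Isg15, SE 0.23) and 2.67 (Usp18, SE 0.20), with limma adjusted p-values of 8.09e-07, 1.00e-05 and 2.36e-06.

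Both membrane factors rose. Bst2 had 0.849 and 1.89 FPKM in 4xIOP control and 27.6 and 25.2 FPKM in 4xIOP (log2 fold change 3.90, SE 0.26, limma adjusted p = 7.25e-07). Ifitm3 had 2.81 and 4.73 FPKM in 4xIOP control and 39.9 and 30.8 FPKM in 4xIOP (log2 fold change 3.10, SE 0.26, limma adjusted p = 6.16e-06). Ifitm3 had the highest mean of all members in 4xIOP, 35.4 FPKM.

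In the OAS family the 3 tested genes rose. Oasl2 had 1.13 and 1.71 FPKM in 4xIOP control and 18.3 and 13.5 FPKM in 4xIOP (log2 fold change 3.09, SE 0.23, limma adjusted p = 1.71e-06). Oas1b, which in many laboratory strains carries a truncating change, had 0.262 and 0.479 FPKM (control) and 3.94 and 2.12 FPKM (4xIOP). Oas3 had 0.0320 and 0.02 FPKM (control) and 1.11 and 0.146 FPKM (4xIOP), Oas2 0.0130 and 0.0250 FPKM (control) and 1.03 and 0.233 FPKM (4xIOP), and Oasl1 0.0460 and 0.0650 FPKM (control) and 0.942 and 0.248 FPKM (4xIOP). These 3 were too low for the test, did not overlap between the groups, and differed widely between the 4xIOP libraries. Mx1 showed the same spread, with 0 and 0.0340 FPKM in 4xIOP control and 1.08 and 0.247 FPKM in 4xIOP. Its neighbour Mx2 had 0.0940 and 0.314 FPKM (control) and 2.7 and 1.59 FPKM (4xIOP) and rose, with a log2 fold change of 1.90 (SE 0.28, limma adjusted p = 0.000534).

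Of the 11 sensing and processing genes 5 rose, namely the helicases Ifih1, Ddx58, Dhx58 and Ddx60 and the translation-blocking kinase Eif2ak2 (PKR). Ddx58 had 0.746 and 0.902 FPKM in 4xIOP control and 4.57 and 4.34 FPKM in 4xIOP, and Eif2ak2 had 0.572 and 0.669 FPKM (control) and 5.07 and 3.77 FPKM (4xIOP). The enzymes with high control levels were again not called. Adar had 11.9 and 12.3 FPKM in 4xIOP control and 18.8 and 16.1 FPKM in 4xIOP (log2 fold change 0.51, SE 0.23, limma adjusted p = 0.306). Znfx1, a helicase that binds viral RNA at mitochondria, had 4.44 and 4.60 FPKM (control) and 6.82 and 4.62 FPKM (4xIOP) (limma adjusted p = 0.709).

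All 4 PARP and Dtx3l genes rose (median 2.23 on the log2 scale). Parp14, which lies beside Dtx3l and Parp9 on chromosome 16, had 0.400 and 0.742 FPKM in 4xIOP control and 7.54 and 4.80 FPKM in 4xIOP. Among the 15 other members 12 rose. Ifi27l2a (NM_029803, chr12:103442166-103443680) had 0.329 and 0.516 FPKM in 4xIOP control and 15.4 and 14.4 FPKM in 4xIOP, the largest log2 fold change of the set (4.07, SE 0.20, limma adjusted p = 8.20e-08). Rtp4 had 0.433 and 0.361 FPKM (control) and 8.24 and 6.36 FPKM (4xIOP). Epsti1 had 0 and 0.0250 FPKM in 4xIOP control, which is at most 3 reads a library, and 1.94 and 0.395 FPKM in 4xIOP. Against a floor of 3 reads in each control library its mean was at least 29.6-fold higher. Sp100, a nuclear body protein, had 0.219 and 0.191 FPKM (control) and 1.91 and 0.413 FPKM (4xIOP) and was not called (limma adjusted p = 0.134).

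Leaving out a 4xIOP or control library gave medians, above that of all tested genes, of 1.38 to 1.97. Calls without a library are no gauge of the spread between libraries here, as only 1 residual degree of freedom is left. The filter matters here, because 16 of the 43 tested members had a mean under 0.5 FPKM in the control group and passed the filter only through the treated group. They hold 13 of the 35 calls, among them Ifi27l2a, Isg15, Rtp4 and Rsad2. With a minimum mean of 2 FPKM 22 members were called. In 4xIOP, 42 of 49 members were higher in replicate 1, while 72.5% of tested genes were higher in replicate 2. Immune cell markers rose in the same libraries. Summed FPKM of the 9 microglia markers was 12.95 and 13.5 in 4xIOP control and 90.6 and 92.5 in 4xIOP, with 8 of 9 called. Summed FPKM of the 10 markers of infiltrating leukocytes was 0.685 and 0.183 in 4xIOP control and 55.8 and 51.96 in 4xIOP, with 5 called (Ccr2, Ly6c2, S100a8, S100a9 and Plac8). Their control means ran from 0.0135 FPKM (Ccr2) to 0.14 FPKM (Plac8), so these 5 passed the filter only through the treated group. The called microglia markers Aif1, Tmem119, Itgam and Ptprc also had control means under 0.5 FPKM. The T cell marker Cd3e was at 0.135 and 0 FPKM in 4xIOP and the B cell marker Cd79a at 0 and 0 FPKM. Rod markers summed to 8904 and 9289 FPKM in 4xIOP control and to 4351 and 6562 FPKM in 4xIOP, with 0 of 5 called. The rod gene Sag lay the other way from the sum, at 1699.9 and 1313 FPKM (control) and 1583 and 2571 FPKM (4xIOP). Gfap had 2.14 and 2.69 FPKM (control) and 46.1 and 32.7 FPKM (4xIOP) and rose, the only call of its 5-marker list. That list summed to 715.7 and 747.8 FPKM in 4xIOP control and 405.5 and 482.4 FPKM in 4xIOP. Glul alone held 579 and 592 FPKM (control) and 249 and 292 FPKM (4xIOP). Without overlap, 3 of the 5 markers were higher, and Glul and Rlbp1 were lower. Of the 4 lens markers 2 rose (Cryaa and Crygs), and of the 5 markers of the retinal pigment epithelium 2 fell (Rpe65 and Ttr). The part of these cells in the result was not tested.

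Untreated retinas of the 2 ages were compared next. In 18mo control 4 of 49 members were higher than in 3mo control and 0 were lower (limma), where 11.6% of tested genes were higher and 11.6% lower. The members' share of higher calls was thus near the background and that of lower calls under it. Oasl2, Znfx1, Trim25 and Lgals3bp were the 4 calls. Both 18mo libraries lay above both 3mo libraries in 34 members and below them in 2 (Ifit3 and Samd9l), beside 36.5% and 27.7% of all genes above 0 in a library. The median log2 fold change was 0.48 against 0.16 for all tested genes, and 37 members lay above the latter.

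Lgals3bp (NM_011150, chr11:118392747-118401959) had 5.47 and 3.17 FPKM in 3mo control and 10.1 and 17.3 FPKM in 18mo control (log2 fold change 1.55, SE 0.30, limma adjusted p = 0.00801). Trim25, the ubiquitin ligase that works with RIG-I, had 3.41 and 1.92 FPKM (3mo) and 6.68 and 6.47 FPKM (18mo) (log2 fold change 1.20, SE 0.28, limma adjusted p = 0.0124). Znfx1 had 2.7 and 1.90 FPKM (3mo) and 5.08 and 5.72 FPKM (18mo), and Oasl2 5.11 and 2.40 FPKM (3mo) and 7.37 and 11.7 FPKM (18mo), with limma adjusted p-values of 0.00670 and 0.0301. The 4 genes had no overlap between the ages. Sp100 had 0.245 and 0.160 FPKM in 3mo control and 0.889 and 0.902 FPKM in 18mo control, with a log2 fold change of 0.99 under the threshold of 1. Rsad2 had 0.440 and 0.111 FPKM (3mo) and 1.06 and 0.781 FPKM (18mo) (limma adjusted p = 0.0661). The IFIT and Isg15 system had a median of -0.09, 3 of 7 genes above 0, and values for Isg15 of 2.02 and 2.62 FPKM in 3mo control and 1.76 and 3.18 FPKM in 18mo control.

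The age calls depend on single libraries and on the scale. There were 8 when 3mo control replicate 1 was left out and 1 when replicate 2 was, and 2 and 0 when 18mo control replicates 1 and 2 were. Transcript length also separated the libraries, since the median FPKM of transcripts under 1 kb was 1.89 and 4.70 times that of transcripts over 4 kb in 3mo control, and 1.28 and 1.21 times in 18mo control. With this trend removed 9 members were called. Microglia markers summed to 24.4 and 33.9 FPKM in 3mo control and 64.1 and 68.9 FPKM in 18mo control (4 of 9 called), and endothelial markers to 2.52 and 1.63 FPKM and to 20.04 and 21.3 FPKM (4 of 4 called). Ganglion cell markers summed to 300.0 and 612.3 FPKM and to 32.3 and 72.3 FPKM, with 4 of 5 called lower. Of the 5 pigment epithelium markers 3 were called lower (Rpe65, Ttr and Lrat), and of the 5 markers of Müller glia and astrocytes 2 were called higher (Glul and Aqp4). Their part in the result was not tested.

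In treated retinas, members lay on both sides between the ages. Between 18mo IOP and 3mo IOP 1 member (Rsad2) was higher and 5 (Ifit3, Usp18, Ifitm3, Rtp4 and Ifi27l2a) were lower (limma), where 10.2% of tested genes were higher and 11.6% lower, so both shares were near or under the background. The median log2 fold change was 0.09 for the members and 0.09 for all tested genes, and 28 of 49 members were above 0, beside 54.4% of tested genes. Without overlap, 17 members were higher and 10 lower at 18 months, beside 34.5% and 29.9% of all genes above 0 in a library. The 10 lower were Ifit1, Ifit2, Ifit3, Ifit3b, Isg15, Usp18, Ifitm3, Rtp4, Samd9l and Ifi27l2a. The IFIT and Isg15 system had a median of -0.94, the membrane factors -0.77, and the sensing and processing genes 0.32.

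Ifit3 had 41.7 and 90.8 FPKM in the 3mo IOP libraries and 17.0 and 22.1 FPKM in 18mo IOP (log2 fold change -1.64, SE 0.33, limma adjusted p = 0.00921). Ifitm3 had 70.3 and 82.6 FPKM (3mo) and 29.5 and 35.8 FPKM (18mo) (log2 fold change -1.22, SE 0.24, limma adjusted p = 0.00923). In both genes each 18mo IOP library was under each 3mo IOP library. Rtp4 had 9.23 and 11.8 FPKM (3mo) and 2.67 and 4.88 FPKM (18mo) (limma adjusted p = 0.0130), Usp18 5.64 and 9.47 FPKM (3mo) and 2.77 and 2.75 FPKM (18mo) (limma adjusted p = 0.0151), and Ifi27l2a 18.2 and 23.4 FPKM (3mo) and 7.55 and 3.34 FPKM (18mo) (limma adjusted p = 0.0161). In the opposite direction, Rsad2 had 0.731 and 1.66 FPKM in the 3mo IOP libraries and 2.29 and 3.61 FPKM in 18mo IOP (log2 fold change 1.06, SE 0.35, limma adjusted p = 0.0424). Lgals3bp had 18.5 and 16.7 FPKM (3mo) and 31.4 and 26.1 FPKM (18mo), also without overlap, and was not called (limma adjusted p = 0.0992). Without 3mo IOP replicate 2 no member was lower, and without 3mo IOP replicate 1 or 18mo IOP replicate 2 there were 3. Short transcripts weighed more in the 3mo IOP libraries, where the median FPKM of transcripts under 1 kb was 3.26 and 2.99 times that of transcripts over 4 kb, against 1.20 and 1.36 times in 18mo IOP. With this trend removed 5 members were lower, 3 of them the same (Ifit3, Usp18 and Rtp4), with Ifit2 and Samd9l added. Ifitm3, a transcript of 644 bases, then stood at -0.19 on the log2 scale (limma adjusted p = 0.70) and Ifi27l2a, of 458 bases, at -0.85 (limma adjusted p = 0.166), so both lost their calls. Isg15 moved from -0.94 to 0.03 and Bst2 from -0.32 to 0.62, and neither was called. Rsad2 lost its call under 6 other settings, among them a pseudocount of 1 and median-of-ratios size factors. Microglia markers summed to 60.8 and 50.2 FPKM in 3mo IOP and to 171.2 and 80.5 FPKM in 18mo IOP (5 of 9 called higher). Called higher as well were 4 of 4 endothelial markers and 3 of 5 of Müller glia and astrocytes, and called lower 5 of 5 ganglion cell and 3 of 5 pigment epithelium markers. Their part in the result was not tested.

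**Figure D4:**
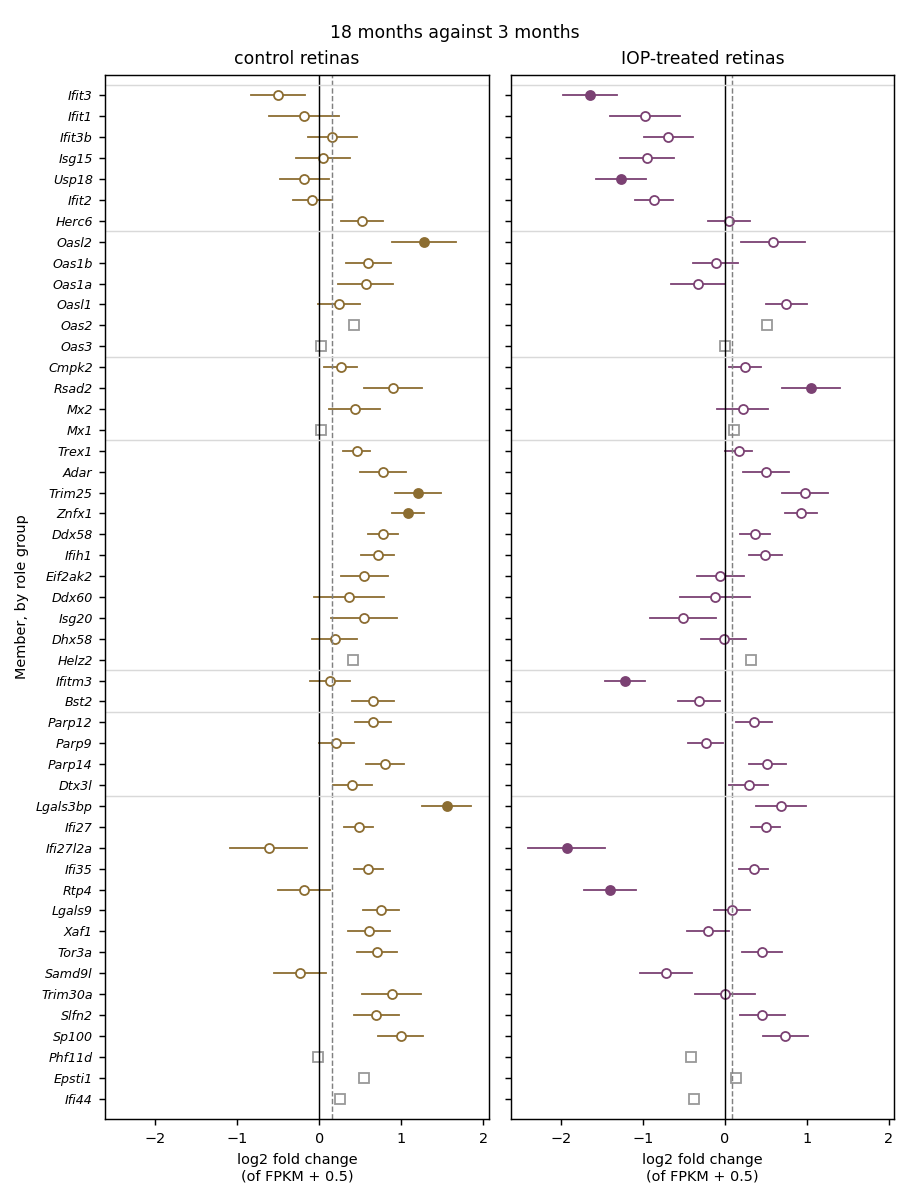
Log2 fold change of FPKM + 0.5 (x axis) of each member (rows, by role) in 18mo against 3mo retinas, with control retinas on the left and IOP-treated retinas on the right. Circles are limma estimates with bars of 1 SE, filled circles were called, grey squares were not tested, and the dashed line is the median of all tested genes. In treated retinas 6 of the 7 IFIT and Isg15 genes lie left of 0, with a median of -0.94, whereas Rsad2 lies at 1.06.

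Whether the response to IOP itself differed with age was tested as an interaction. For 44 of 49 members the log2 response was smaller at 18 months than at 3 months, beside 57.1% of tested genes, and the median difference was -0.41 against -0.04 for all tested genes. The gap between these medians, -0.37, became -0.12 without 3mo IOP replicate 2 and -0.58 without 3mo IOP replicate 1. None passed the test (limma, 0 of 42 tested members and 0.0% of all tested genes), and voom also called 0. At an unadjusted p under 0.05 there were 6 members, all with smaller responses at 18 months (Ifit2, Ifit3, Usp18, Bst2, Ifitm3 and Rtp4), where 1.01% of tested genes were lower and 0.575% higher. Ifitm3 had the lowest value, -1.35 (SE 0.34), and Oasl1 the highest, 0.51 (SE 0.35). A difference in response between the ages was thus not shown for any single member.

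The other genes of the interferon pathway were read from a list of 43 symbols, 41 of which were in the tables. Of the 9 ligand genes, 8 were at 0 in every library of the single-IOP series and 8 in every library of the repeated-IOP series. Interferon beta (Ifnb1, NM_010510, chr4:88522025-88522794) was at 0 in all 3mo and 4xIOP series libraries. It had 0.0590 and 0.0560 FPKM in 18mo control and 0.332 and 0.351 FPKM in 18mo IOP, which stand for 2 and 2 reads and for 14 and 16 reads. Its mean in 18mo IOP was at least 3.95-fold higher than 3 reads in each 18mo control library and at least 4.12-fold higher than 3 reads in each 3mo IOP library. Interferon gamma (Ifng) was detected only in 4xIOP replicate 1, at 0.059 FPKM.

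Of the receptor genes, Ifnar1 had 4.29 and 3.02 FPKM in 3mo control and 4.44 and 4.41 FPKM in 3mo IOP. Ifnar2 had 1.43 and 1.57 FPKM in 4xIOP control and 4.61 and 5.22 FPKM in 4xIOP and rose (log2 fold change 1.44, SE 0.19, limma adjusted p = 0.000280). Jak1, the shared kinase, had 14.2 and 13.8 FPKM (control) and 15.1 and 18.8 FPKM (4xIOP) (limma adjusted p = 0.789).

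Of the 8 transcription factors, 2 rose in 3mo IOP (Irf7 and Irf8), 0 passed the test in 18mo IOP and 6 rose in 4xIOP (Stat2, Irf1, Irf5, Irf7, Irf8 and Irf9). Irf9, a subunit of the complex that binds the response element, had 2.34 and 3.83 FPKM (control) and 34.6 and 29.4 FPKM (4xIOP) (log2 fold change 3.21, SE 0.25, limma adjusted p = 2.68e-06). Irf7, the factor that amplifies interferon production, had 3.70 and 4.59 FPKM in 3mo control, 15.7 and 13.2 FPKM in 3mo IOP retinas, 17.2 and 17.3 FPKM in 18mo control and 19.0 and 25.9 FPKM in 18mo IOP. It rose with IOP at 3 months (log2 fold change 1.69, SE 0.20, limma adjusted p = 0.0293) and was higher in 18mo than in 3mo control retinas (log2 fold change 1.94, SE 0.20, limma adjusted p = 0.00301). At 18 months its response to IOP was 0.35 (SE 0.20, limma adjusted p = 0.775). Irf3, which is activated without new synthesis, had 12.2 and 17.6 FPKM in 4xIOP control and 12.6 and 15.4 FPKM in 4xIOP, which overlap. Over the whole list 5 genes rose in 3mo IOP (Irf7, Irf8, Zbp1, Socs3 and the member Usp18), 0 were called in 18mo IOP and 14 rose in 4xIOP. Irf5, Irf8, Zbp1 and Socs3 are named because of these counts, after their values were seen. Irf8 and Zbp1 had means of 0.0635 and 0.058 FPKM in 3mo control and passed the filter only through other groups. In 4xIOP control Irf5, Irf8, Zbp1 and Socs3, among others, had means under 0.5 FPKM and passed it only through the treated group.

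Several members are neighbours in the genome. Ifit2, Ifit3, Ifit3b and Ifit1 lie within chr19:34551088-34650009, and Oas2, Oas3, Oas1b and Oas1a within chr5:120730333-120907525. Members of a cluster did not have like levels, since Ifit3 had a mean of 66.3 FPKM in 3mo IOP and Ifit2 of 5.15 FPKM. Among the 11 members with the response element letters, the median response (log2) was 1.64 in 3mo IOP, 0.80 in 18mo IOP and 2.10 in 4xIOP. For the 26 with a promoter sequence but no match the medians were 0.96, 0.47 and 1.54. Between 18mo IOP and 3mo IOP the medians were -0.32 with the letters and 0.31 without. These medians are descriptions, as the members are not independent and 5 of the 11 are in the Ifit and Oas clusters or share sequence.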

How the data were processed

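Poly(A) RNA from whole retinas was sequenced as strand-specific libraries. Per the labels and the methods, the authors aligned reads to mm10 with STAR 2.7.8a and had HOMER count unique exon tags on the transcribed strand for a single isoform per locus. Per library, the authors deposited FPKM, in 1 table for each series and with replicates kept apart. The isoform differs between the tables for Oasl1, Oasl2, Mx1, Mx2, Ifih1, Ifi27 and Sp100.

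FPKM times transcript length gave whole reads for at least 99.9% of the values checked (within 0.02 reads beyond rounding), which gave the depth of each library. The limit of measurement was 3 reads, and limits cover counting error only. As the table values are FPKM, the test was run on log2(FPKM + 0.5) with limma 3.58.1 (R 4.3.3, lmFit and eBayes with trend). One fit held the 8 single-IOP libraries in 4 groups (4 residual degrees of freedom) and another the repeated-IOP series (2 degrees of freedom). The p-values rest on the spread between 2 libraries a group and on a spread that eBayes borrows from all tested genes. The borrowed part weighed 4.12 degrees of freedom in the single-IOP series and 10.6 in the repeated-IOP series. In simulated data, 82.5% of 200 genes given a log2 change of 2 were called for IOP at 3 months, and 57.5% for 4xIOP.

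The members, the role, pathway and marker lists and the tests were chosen with earlier results of these data known. Members named are the 6 with the largest change in a comparison, the 2 highest of a role group, those called against the majority and those not tested, others being examples chosen after their values were seen. Alternatives were pseudocounts of 0.1 and 1, no filter, a minimum mean of 2 FPKM, size factors by median of ratios, eBayes without trend, a replicate block, only the 2 groups compared, the adjusted p alone, removal of the length trend (splines with 5 degrees of freedom), voom on recovered reads and leaving out each library. The labels do not say which eyes share an animal, and same-numbered libraries did not deviate together. Numbers were therefore not used to pair eyes. One gene of the pathway list is not reported here, and the list's counts leave it out.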

Additional observations from a re-analysis of the deposited data

How the results depend on the processing

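Of the members called in a comparison, named or not, 0 changed sign, and neither did the medians in 3mo IOP, 18mo IOP, 4xIOP or 18mo against 3mo control, under the settings run, but 56 uncalled values of named members, in 23 pairings of a member with a comparison, changed sign, 31 of them with a library left out. With no filter, median-of-ratios size factors, only the 2 groups compared, or voom, 2, 3, 7 and 1 members rose in 3mo IOP instead of 11. With a minimum mean of 2 FPKM, 22 rose in 4xIOP instead of 35. For 18mo against 3mo control, 9 were higher with a pseudocount of 0.1, 9 with the length trend removed and 12 by the adjusted p alone, instead of 4. For 18mo IOP against 3mo IOP, 2 were higher with a pseudocount of 0.1, 4 by the adjusted p alone, and 0 with a pseudocount of 1, no filter, a minimum mean of 2 FPKM, size factors by median of ratios, the replicate block or only the 2 groups compared, instead of 1. In that comparison 5 to 7 members were lower under the settings that kept all libraries, but with the length trend removed Ifitm3 and Ifi27l2a were not among them. The cause was not tested. The median of the members above that of all tested genes was 1.02 in 3mo IOP (1.39 with a pseudocount of 0.1, 1.53 by voom), 0.67 in 18mo IOP (0.51 with a pseudocount of 1, 0.90 by voom), 1.54 in 4xIOP (2.28 with a pseudocount of 0.1, 2.71 by voom) and 0.33 in 18mo against 3mo control (0.58 with a pseudocount of 0.1, 0.47 with no filter, 0.62 by voom).

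Leaving out each library in turn gave 0 to 11 rising members in 3mo IOP, 0 to 1 in 18mo IOP, 31 to 37 in 4xIOP, 0 to 8 in 18mo against 3mo control, and 0 to 2 higher and 0 to 5 lower in 18mo IOP against 3mo IOP. The medians ranged from 0.79 to 1.22 (3mo IOP), 0.56 to 0.68 (18mo IOP), 1.38 to 1.97 (4xIOP), 0.22 to 0.38 (18mo against 3mo control) and -0.58 to -0.12 (the interaction, -0.37 with all libraries and -0.71 by voom). Deviations of same-numbered libraries correlated at -0.28, -0.53 and -0.29. With 2 libraries a group this cannot settle whether the numbers mark pairs. With the replicate block 7 members rose in 3mo IOP, 0 in 18mo IOP and 37 in 4xIOP. With crossed pairs, chosen after seeing the data, 26, 9 and 37 rose. For 4xIOP the block, the crossed pairs and the fits without a control library left 1 residual degree of freedom. Their spread came wholly from other genes, so their 4xIOP counts do not gauge the spread between libraries.

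The uncalled values with the other sign were as follows. With median-of-ratios size factors the log2 values were Adar -0.024, Znfx1 -0.056, Trex1 -0.060 and Sp100 -0.065 in 18mo IOP, Trex1 -0.13 in 4xIOP, Isg15 -0.10 and Ifitm3 -0.033 in 18mo against 3mo control, and Cmpk2 0.050 in the interaction. With voom the log2 values were Adar -0.026, Znfx1 -0.062, Trex1 -0.061 and Sp100 -0.14 in 18mo IOP, Trex1 -0.13 in 4xIOP, Isg15 -0.12 and Ifitm3 -0.025 in 18mo against 3mo control, and Rsad2 -0.50 and Cmpk2 0.065 in the interaction. With the length trend removed the log2 values were Trex1 -0.030 in 18mo IOP, Trex1 -0.12 in 4xIOP, Rtp4 0.12 and Ifi27l2a 0.44 in 18mo against 3mo control, and Isg15 0.026, Oas1b 0.041 and Bst2 0.62 in 18mo against 3mo IOP. With a pseudocount of 0.1 the log2 value was Rsad2 -0.28 in the interaction. Leaving out a library spanned 0 for Adar -0.066 to 0.80 in 3mo IOP, Adar -0.092 to 0.29, Znfx1 -0.016 to 0.14, Trex1 -0.0070 to 0.14, Sp100 -0.32 to 0.36 and Trim25 -0.11 to 0.52 in 18mo IOP, Trex1 -0.088 to 0.096 in 4xIOP, Ifit1 -0.58 to 0.20, Isg15 -0.31 to 0.39, Usp18 -0.51 to 0.14, Rtp4 -0.54 to 0.17 and Ifitm3 -0.18 to 0.45 in 18mo against 3mo control, Oas1b -0.41 to 0.19 and Bst2 -0.70 to 0.066 in 18mo against 3mo IOP, Rsad2 -0.25 to 0.56, Cmpk2 -0.21 to 0.18, Ifi27 -0.16 to 0.19, Adar -0.70 to 0.16, Znfx1 -0.37 to 0.050, Trim25 -0.57 to 0.13 and Sp100 -0.59 to 0.083 in the interaction. The median of the members above that of all tested genes in 18mo against 3mo IOP was -0.0029, and ran from -0.11 to 0.18 over the settings run.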

Other observations

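The rarest members gave few reads. In 4xIOP control, 22 of 49 members had a mean under 0.5 FPKM, against 1 in 4xIOP, and in 3mo control 19, against 6 in 3mo IOP. Spread within a group was not the same for all members. On FPKM + 0.5, which shrinks the ratios of low members, 5 members in 4xIOP were at least 2-fold higher in replicate 1 than in replicate 2. On the same scale 6 members in 3mo IOP were at least 2-fold higher in replicate 2 than in replicate 1. The summed FPKM of the 49 members was 366.8 and 299.6 in 4xIOP, and 64.8 and 79.1 in its controls.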
